A study of Mus musculus with 12 samples.

Results

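The miR-148 and miR-152 family consists of 6 mature miRNAs made from 3 hairpins, miR-148a, miR-148b and miR-152, each cut into a 5p and a 3p arm. The members were taken by name from a table of 1652 mature miRNA names, and all 6 were present. The table came from small RNA sequencing of kidneys of untreated WT mice, with 6 libraries at postnatal day 8 and 6 at day 0, and the series asked which miRNAs differ between these ages and might regulate Nr3c2, the gene of the receptor for aldosterone. Genotype and lack of treatment were shared by both ages, and strain, sex and litter were not given. Nothing states that the libraries came from separate animals, so the p-values measure only the spread between these samples. Values are CPM, the reads of a miRNA in each 1000000 miRNA reads of a library, and in whole kidney RNA fewer cells of a type and less RNA per cell cannot be told apart.

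A miRNA guides Argonaute to messenger RNAs that pair with its seed, bases 2 to 8 from its 5′ end, and most targets are then repressed. Usually 1 arm of a hairpin is kept as the guide, while the other arm is mostly degraded. The 3p arms of this family are the guides, and they are known for repressing Dnmt1, the enzyme that copies DNA methylation to the new strand after replication. miR-148a is known to be abundant in liver and pancreas. miR-148b and miR-152 are made from introns of the genes of the coatomer zeta subunits, which coat vesicles that return from the Golgi.

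The 3p sequences are shown because the shared seed defines the family and the few other differences set how well reads can be told apart. They are given 5′ to 3′ from RefSeq (GRCm38.p6), with the seed in capitals.
miR-148a-3p: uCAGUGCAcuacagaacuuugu
miR-148b-3p: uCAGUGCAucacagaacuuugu
miR-152-3p: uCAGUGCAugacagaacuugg
Counted from 1 at the 5′ end, miR-148a-3p differs from miR-148b-3p by C9U and U10C, and from miR-152-3p by C9U, U10G and U20G. miR-148b-3p differs from miR-152-3p by C10G and U20G. With 2 or 3 differences, reads could be shared between members if mismatches were allowed, and the counting rule is not given in the sources used here. Of the 1409 names of the table that had a RefSeq mature sequence, only these 3 had the seed CAGUGCA.

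The 5p arms carry other seeds, shown here because 1 of them changed most with age.
miR-148a-5p: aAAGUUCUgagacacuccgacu
miR-148b-5p: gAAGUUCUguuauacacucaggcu
miR-152-5p: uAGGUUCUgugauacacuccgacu
miR-148a-5p and miR-148b-5p have the same seed, and miR-152-5p differs from both by A3G. No other matched name had either seed.

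The hairpins lie on 3 chromosomes of GRCm38. Mir148a is on chromosome 6 at 51269812 to 51269910, minus strand, outside any other gene annotated in GENCODE M21. Mir148b is on chromosome 15 at 103285125 to 103285221, plus strand, in an intron of Copz1. Mir152 is on chromosome 11 at 96850393 to 96850465, plus strand, in an intron of Copz2. Both host genes run on the same strand as their miRNA. The miR-148a hairpin, whose arms moved apart most between the ages, is printed with its 5p and 3p arms in capitals.
miR-148a hairpin: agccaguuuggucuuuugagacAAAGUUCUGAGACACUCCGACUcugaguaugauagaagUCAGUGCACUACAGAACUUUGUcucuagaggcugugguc

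The pairing partner of the 3p seed was searched for in 3′ UTRs of GENCODE M21, taking the transcript with the longest 3′ UTR of each gene and reading the transcribed strand only. The letters searched were TGCACTG, opposite the seed, and TGCACTGA, which adds the A opposite base 1. The 312-base 3′ UTR of Dnmt1 held 1 match, to all 8 letters, starting at its base 23 (chromosome 9, 20907490 to 20907511, minus strand, for the stretch printed, with the match in capitals).
Dnmt1 site: ccagagccccacgTGCACTGAt
TGCACTGA was found in 1.2% of the first 312 bases of the 16381 other 3′ UTRs at least that long. Neither string was found in the 3′ UTR of Nr3c2, 2482 bases long, where 20.9% of other 3′ UTRs cut to that length held TGCACTG. The 1331-base 3′ UTR of Dnmt3b, another DNA methyltransferase gene, held neither string, and 12.8% of other 3′ UTRs at its length held TGCACTG. Coding sequences were not searched, and messenger RNA was not measured in these libraries.

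The 3p members were among the abundant miRNAs of the neonatal kidney, and miR-148b-3p was higher at day 8. The 5p members were far rarer, and miR-148a-5p was lower at day 8. The remaining 4 members did not pass the test per library total. The test was limma on log2(CPM + 1) over the 564 names that reached 1 CPM in 6 or more libraries, with Benjamini-Hochberg adjustment at 0.05, and all 6 members were tested. Thus 1 of 6 members was called higher and 1 lower, where 16.5% of all tested names were called higher and 48.2% lower, 64.7% in all. The median log2 change of the members was -0.03, and that of all tested names was -0.34 (day 8 minus day 0). Rescaling by TMM factors, which assume that most names keep their level, moved the median of all names to -0.00, and 4 members were then called higher and 1 lower, against 30.3% and 34.2% of all names.

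By mean CPM, miR-148a-3p was the most abundant member at both ages. In day 0 replicates 3 and 4, miR-152-3p lay above it. miR-148a-3p ranged from 7208 to 15492 CPM at day 8, with a median of 9469. At day 0 it ranged from 7528 to 10216 CPM, with a median of 8027. Day 8 replicate 2 was the highest library and day 8 replicate 3 the lowest, so the day 0 values lay within the day 8 range. The mean was 10179.9 ± 3037 CPM at day 8 and 8270.2 ± 976 CPM at day 0 (SD, n = 6 each). The log2 change of 0.26 (95% interval -0.08 to 0.59) had a limma adjusted p of 0.159. Leaving out day 8 replicate 3 brought it past the threshold (0.35, limma adjusted p = 0.0495), as did TMM factors (0.65, limma adjusted p = 0.00299), while leaving out day 8 replicate 2 gave 0.13.

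miR-152-3p stood close to miR-148a-3p in level and did not pass the test. It ranged from 6079 to 8661 CPM at day 8 (median 7924) and from 6992 to 8443 CPM at day 0 (median 7891). The ages overlapped throughout, and day 8 replicate 3 was again the lowest library. The log2 change was -0.03 (95% interval -0.22 to 0.16, limma adjusted p = 0.784). Its sign depended on the scaling: with TMM factors the change was 0.36 and passed (limma adjusted p = 0.00592).

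miR-148b-3p was the least abundant 3p member in all 12 libraries and was higher at day 8. It ranged from 2170 to 2703 CPM at day 8 (median 2462) and from 1612 to 2294 CPM at day 0 (median 1799.5). A single pair of libraries kept the ages from separating: day 0 replicate 2, at 2294 CPM, lay above day 8 replicate 3, at 2170 CPM. The mean was 2466 ± 193 CPM at day 8 and 1882 ± 246 CPM at day 0 (SD, n = 6 each), 1.31 times as high at day 8. The log2 change was 0.40 (SE 0.0916, limma adjusted p = 0.00151). The call held under each of the alternatives run, with log2 changes from 0.35 to 0.96. Its place by mean CPM among all names was 58 at day 8 and 64 at day 0.

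**Figure D1:**
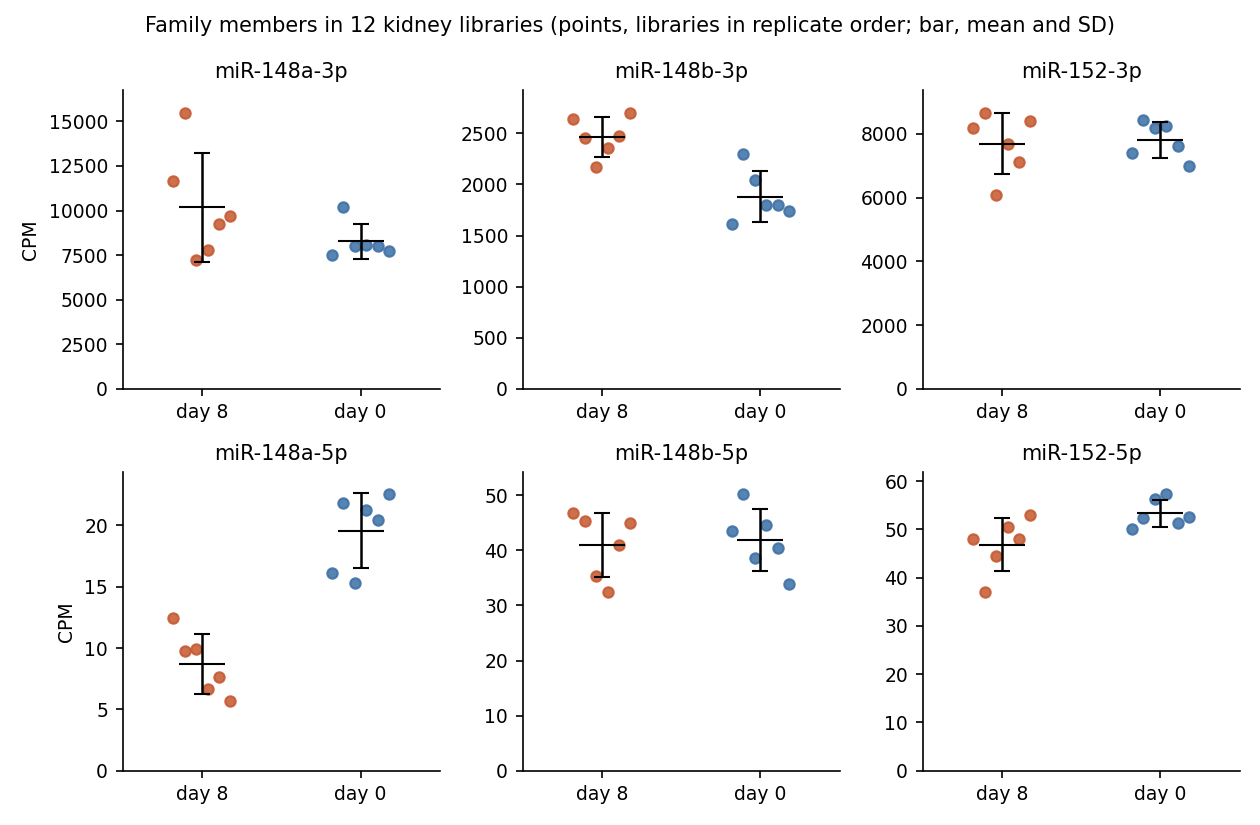
CPM (vertical axes, from 0) of the 6 family members in the 6 day 8 (orange) and 6 day 0 (blue) libraries, 1 point per library, with the mean and SD as bars. miR-148a-5p is the 1 member without overlap between the ages, at 5.69 to 12.4 CPM at day 8 and 15.3 to 22.5 CPM at day 0.

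Among the 5p arms, miR-148a-5p fell. It ranged from 5.69 to 12.4 CPM at day 8 (median 8.73) and from 15.3 to 22.5 CPM at day 0 (median 20.8). All 6 day 8 libraries lay below all 6 day 0 libraries, as in 35.1% of all tested names; for 45.9% the ages did not overlap in either direction. The mean was 8.69 ± 2.48 CPM at day 8 and 19.6 ± 3.08 CPM at day 0 (SD, n = 6 each), which is 0.444 of the day 0 mean. The log2 change was -1.11 (SE 0.173, limma adjusted p = 5.1e-05), the exact two-sided permutation p of its CPM was 0.00216, the smallest this design can give, and with TMM factors the change was -0.75 (limma adjusted p = 0.00136). These values rest on 51 to 192 reads per library.

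The other 5p arms were more abundant than miR-148a-5p and neither passed the limma test. miR-148b-5p ranged from 32.5 to 46.9 CPM at day 8 (median 43.0) and from 33.8 to 50.2 CPM at day 0 (median 42.0). Its ages overlapped almost fully, and its log2 change was -0.03 (95% interval -0.30 to 0.24, limma adjusted p = 0.837). miR-152-5p ranged from 37.1 to 53.0 CPM at day 8 (median 48.0) and from 50.0 to 57.3 CPM at day 0 (median 52.4). Day 8 replicate 2 was its lowest library, and only day 8 replicates 4 and 6 reached the day 0 range. Its log2 change was -0.19 (95% interval -0.41 to 0.03, limma adjusted p = 0.117), while the exact permutation p of its CPM, before any adjustment and 1 of 6 such tests, was 0.0195. With TMM factors both changes were positive, 0.35 for miR-148b-5p, which passed (limma adjusted p = 0.0268), and 0.19 for miR-152-5p, which did not (limma adjusted p = 0.102).

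**Figure D2:**
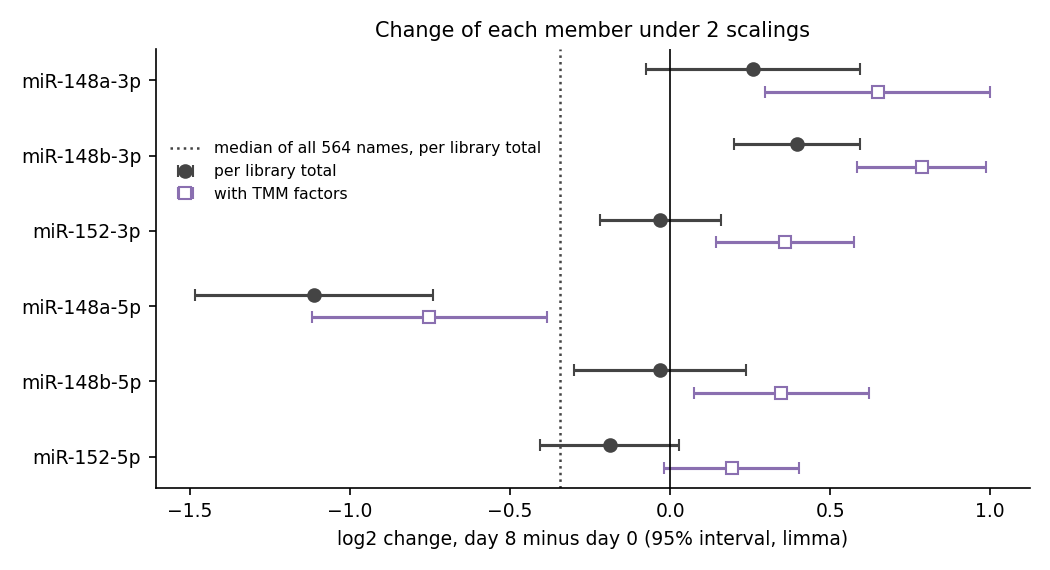
Log2 change (day 8 minus day 0, horizontal axis) of each member with its 95% interval from limma, per library total (filled circles) and with TMM factors (open squares); the dotted line is the median of all 564 names per library total, -0.34. miR-148b-3p lies above 0 and miR-148a-5p below 0 under both scalings, while the signs of miR-152-3p, miR-148b-5p and miR-152-5p differ between them.

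The share of an arm is taken within a library, so it does not depend on the scaling. The tested log2 ratio, with 1 CPM added to each arm, does depend on it where an arm is low. In the miR-148a hairpin the 5p arm made up 0.0890 ± 0.0291% of the reads at day 8 and 0.237 ± 0.0373% at day 0 (SD, n = 6 each). At day 8 the libraries ranged from 0.0586% to 0.137%, and at day 0 from 0.190% to 0.290%. No day 8 library reached a day 0 library, but the highest at day 8 (0.137%, Wilson 95% interval 0.104 to 0.180) and the lowest at day 0 (0.190%, 0.160 to 0.226) were close enough for their counting intervals to overlap. How often the ages separate in the arm shares of other hairpins was not counted, and for single names it was 45.9%. The 3p arm was 1220.3 ± 372 times as abundant as the 5p arm at day 8 and 429 ± 67.5 times at day 0. With a mean of 14.1 CPM, miR-148a-5p was under the minimum of 20 CPM set for the arm test. At a minimum of 5 CPM, where 60.7% of 112 hairpins changed and 26.8% changed toward the 3p arm, the log2 ratio of 5p to 3p changed by -1.37 (SE 0.177, limma adjusted p = 5.1e-06). That was the fourth lowest value among the 112, whose median was 0.15. With 0.1 or 5 CPM added to each arm instead of 1, the change was -1.45 or -1.11.

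The miR-148b hairpin moved the same way and by less. Its 5p arm made up 1.63 ± 0.156% of the reads at day 8 and 2.19 ± 0.299% at day 0 (SD, n = 6 each). The highest day 8 library, at 1.81% (Wilson 95% interval 1.64 to 2.01), lay just below the lowest day 0 library, at 1.85% (1.66 to 2.06). The log2 ratio changed by -0.43 (SE 0.120, limma adjusted p = 0.00580), in a test where 62.5% of 72 hairpins changed and 26.4% changed toward the 3p arm. In the miR-152 hairpin the 5p arm made up 0.615 ± 0.103% of the reads at day 8 and 0.680 ± 0.0413% at day 0. Its ages overlapped, and the change of -0.16 did not pass (SE 0.125, limma adjusted p = 0.267). Without day 8 replicate 2, the library with its lowest 5p share, it was -0.058. The order of the hairpins by 5p share was the same at both ages, with miR-148b highest, miR-152 next and miR-148a lowest, and no 2 hairpins overlapped in any of the 12 libraries.

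**Figure D3:**
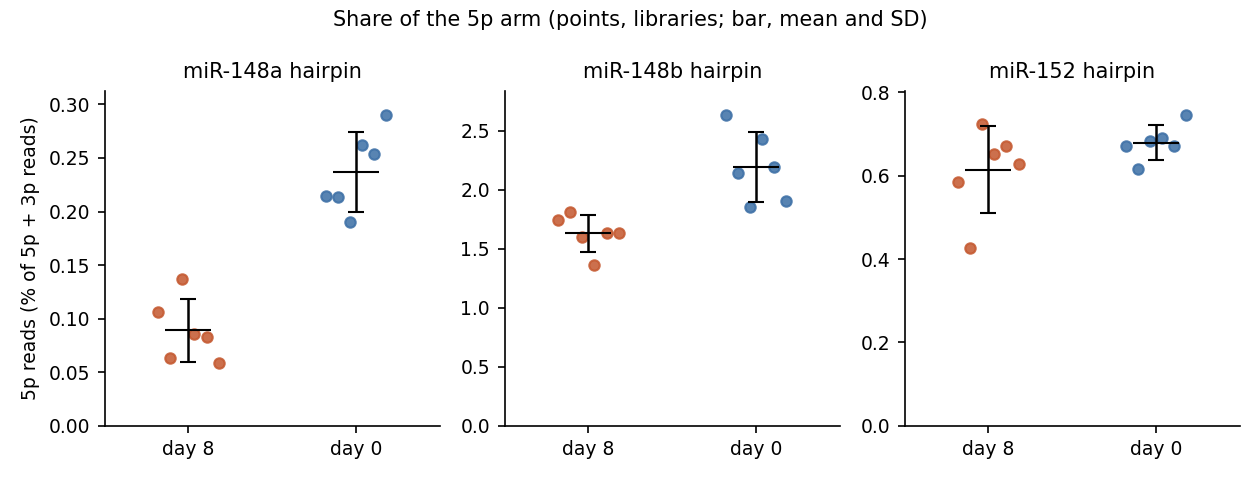
Share of 5p reads among the 5p and 3p reads of each hairpin (percent, vertical axes from 0) in the day 8 (orange) and day 0 (blue) libraries, 1 point per library, with the mean and SD as bars. The miR-148a share is 0.0890% at day 8 and 0.237% at day 0 on average, the miR-148b share 1.63% and 2.19%, and the miR-152 ages overlap.

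Together the 3p members held 20326.5 ± 3911 CPM at day 8 and 17959.6 ± 1647 CPM at day 0 (SD, n = 6 each), or 2.03 ± 0.391% and 1.80 ± 0.165% of the miRNA reads. Day 8 spanned 15457 to 26605 CPM and day 0 16484 to 20953 CPM, so the ages overlapped; no test was made of this sum. The log2 ratio of the mean totals was 0.18, and 0.087 without day 8 replicate 2, the library with the highest total. Within it, miR-148a-3p took 49.4 ± 5.14% at day 8 and 46.0 ± 1.74% at day 0. miR-152-3p took 38.2 ± 3.61% at day 8 and 43.6 ± 1.93% at day 0. miR-148b-3p took 12.4 ± 1.72% at day 8 and 10.5 ± 0.574% at day 0.

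Whether the 3p members changed unequally was tested on 3 ratios, by two-sided exact permutation with Benjamini-Hochberg adjustment over the 3. The ratio of miR-148b-3p to miR-152-3p was 0.323 ± 0.0269 at day 8 and 0.241 ± 0.0208 at day 0 (SD, n = 6 each). All 6 day 8 libraries (0.283 to 0.357) lay above all 6 day 0 libraries (0.218 to 0.272), a log2 change of 0.43 (exact permutation p = 0.00216, the smallest possible, adjusted p = 0.00649). How often ratios of other names separate the ages was not counted. The ratio of miR-148a-3p to miR-152-3p was 1.31 ± 0.272 at day 8 and 1.06 ± 0.0887 at day 0. Its log2 change of 0.29 failed the adjustment (exact permutation p = 0.0368, adjusted p = 0.0552), and it passed without day 8 replicate 4 (0.36) or day 0 replicate 2 (0.33). The ratio of miR-148a-3p to miR-148b-3p was 4.11 ± 1.15 at day 8 and 4.41 ± 0.255 at day 0, with a log2 change of -0.14 that did not pass (exact permutation p = 0.387, adjusted p = 0.387). Without day 8 replicate 2, where this ratio was 6.32, the log2 change was -0.27 and passed (adjusted p = 0.0130, exact permutation).

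**Figure D4:**
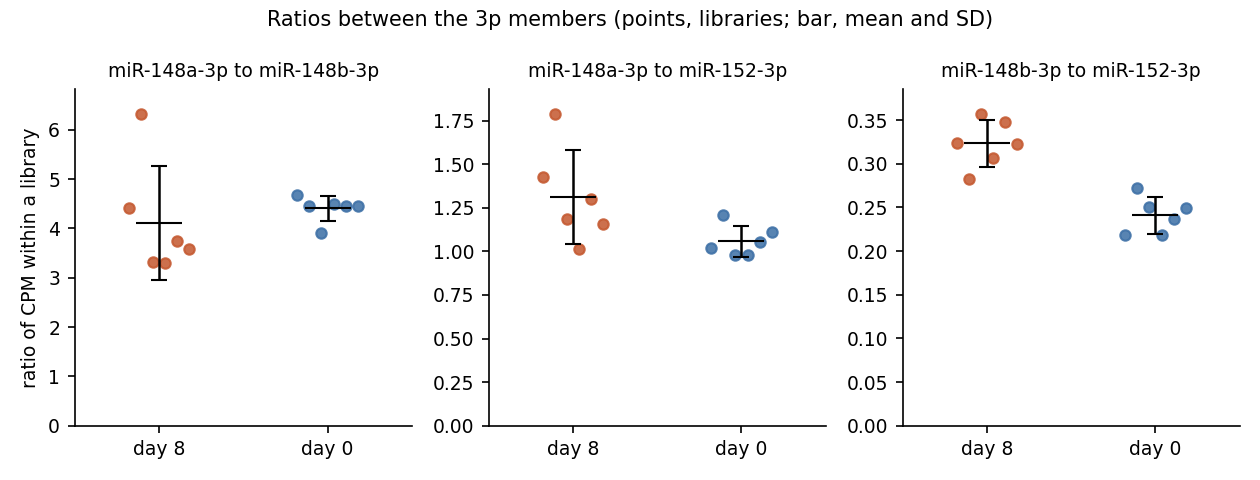
Ratio of the CPM of 2 members within each library (vertical axes from 0) at day 8 (orange) and day 0 (blue), 1 point per library, with the mean and SD as bars. The ratio of miR-148b-3p to miR-152-3p separates the ages, and day 8 replicate 2 stands at 6.32 in the ratio of miR-148a-3p to miR-148b-3p.

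The libraries held 5.16 to 11.8 M miRNA reads at day 8 and 3.37 to 9.05 M at day 0 (M, 1000000), so that at least 23577 reads in each stood behind miR-148a-3p and miR-152-3p, at least 5865 behind miR-148b-3p, and at least 114 behind miR-148b-5p and miR-152-5p. Kidney tubule miRNAs were present in all libraries: miR-192-5p, miR-194-5p and miR-204-5p summed to 16269.8 to 19135 CPM at day 8 and 4610 to 5907 CPM at day 0. All 3 of this fixed list were higher. The tubule miRNA miR-215-5p, not on the list, had a log2 change of -1.84 and did not pass (SE 0.918, limma adjusted p = 0.0929). Each marker list is short, and its counts need not hold for other miRNAs of the same cell type. Markers of other cell types also differed between the ages. Of all tested names, 16.5% were called higher and 48.2% lower, or 30.3% and 34.2% with TMM factors. Both liver markers, the arms of miR-122, were lower and summed to 15.2 to 333 CPM at day 8 and 481 to 3296 CPM at day 0, and all 3 striated muscle markers were lower (2 with TMM factors), at 402 to 497 CPM at day 8 and 484 to 1979.9 CPM at day 0. Of the leukocyte markers 2 of 4 were higher (4 of 4 with TMM factors), with sums of 2823 to 5327 CPM at day 8 and 2101 to 4290 CPM at day 0, and both arms of the endothelial miR-126a were higher, at 120604 to 146671 CPM at day 8 and 101241 to 115855 CPM at day 0. Among the leukocyte markers, miR-142a-5p (log2 change 0.76) lost its limma call when day 8 replicate 1, day 8 replicate 2 or day 0 replicate 1 was left out (highest adjusted p = 0.0552), and miR-142a-3p (0.36) gained one when day 8 replicate 4 or day 0 replicate 2 was left out (0.50 in both). Of 3 erythroid markers 0 passed the limma test (sums of 411 to 840 CPM at day 8 and 332 to 970.0 CPM at day 0; at an unadjusted p under 0.05 there were 0, and limma-voom and edgeR with upper quartile factors each called 1). Of 3 pancreas markers, whose sums were 1.16 to 3.34 CPM at day 8 and 1.48 to 5.60 CPM at day 0, miR-216a-5p alone was tested and did not pass (log2 change -0.46, limma adjusted p = 0.0672). It passed as lower when day 8 replicate 4 (-0.56) or day 0 replicate 6 (-0.57) was left out. The part of these cell types in the changes of the family was not tested. Day 8 replicate 2, highest in miR-148a-3p, had the lowest liver sum (15.2 CPM) and the highest leukocyte sum (5327 CPM). At day 0, replicates 1, 2 and 3 had liver sums of 2317 to 3296 CPM and replicates 4, 5 and 6 of 481 to 913 CPM, while their miR-148a-3p values were 7528 to 10216 CPM and 7753 to 8069 CPM.

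A fixed list of 10 other miRNAs reported to act on DNA methyltransferases, mostly in human cells, was mainly higher at day 8. Further miRNAs so reported were not looked at, and the list holds related names of the miR-29 and miR-101 families. Of 10 listed, 9 were higher, 0 lower and 1 did not pass, against 16.5% of all tested names called higher, and their median log2 change was 0.50, where that of all tested names was -0.34. The list was chosen with some of these values known and is no independent evidence of a direction. The miR-29 family, which acts on Dnmt3a and Dnmt3b, rose: miR-29a-3p was at 507 ± 64.4 CPM at day 8 and 239 ± 38.1 CPM at day 0 (SD, n = 6 each; log2 change 1.09, limma adjusted p = 1.7e-06). miR-29b-3p (log2 change 0.72) and miR-29c-3p (0.57) rose by less. miR-101b-3p, reported to act on Dnmt3a, had the largest change of the list, with 219 ± 34.9 CPM at day 8 and 77.7 ± 9.70 CPM at day 0 (1.47, limma adjusted p = 1.2e-07), and miR-101a-3p rose as well (1.13). Among those reported to act on Dnmt1, as the family does, miR-126a-3p (0.25), miR-140-5p (0.40) and miR-185-5p (0.44) rose, while miR-342-3p, at 1110 ± 262 CPM at day 8 and 871 ± 199 CPM at day 0, did not pass (0.35, limma adjusted p = 0.0906). miR-342-3p passed when day 8 replicate 2 (0.44) or day 0 replicate 6 (0.45) was left out, and with TMM factors (0.74). miR-143-3p, reported to act on Dnmt3a, rose by a log2 change of 0.37.

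**Figure D5:**
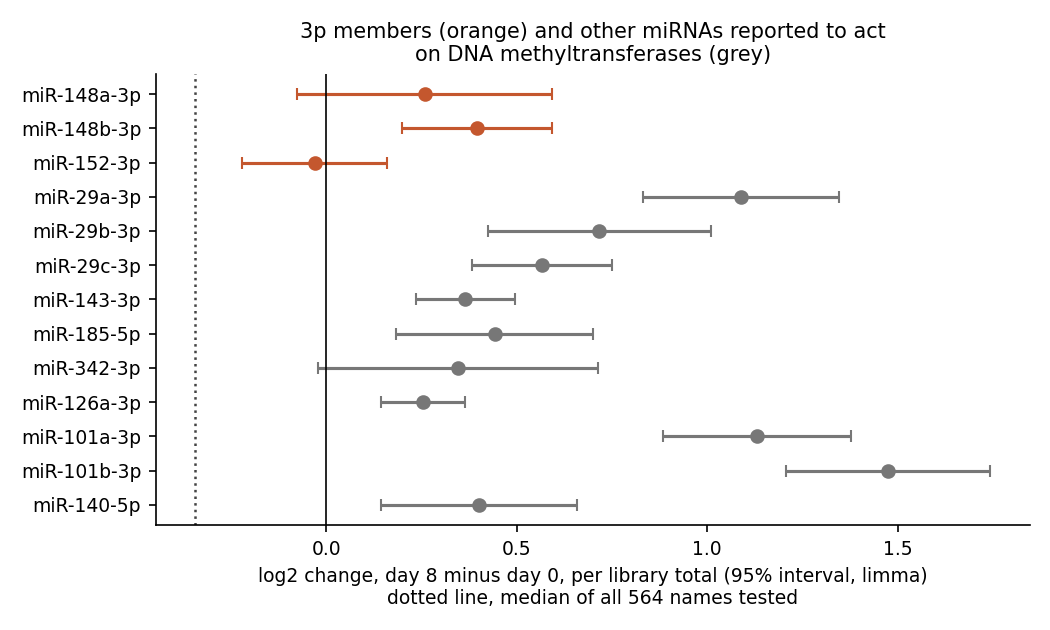
Log2 change (day 8 minus day 0, per library total, horizontal axis) with its 95% interval from limma, for the 3p members (orange) and 10 other miRNAs reported to act on DNA methyltransferases (grey); the dotted line is the median of all 564 names tested, -0.34. The 3p members range from -0.03 to 0.40 and the other miRNAs from 0.25 to 1.47.

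The patterns most like those of the 3p members were sought among 212 other names with a mean of at least 100 CPM, by Pearson's r of log2(CPM + 1) over the 12 libraries. These values describe shared variation only, since all names of a library share its total. The names printed had the highest r of the 212, so their r is high by selection. The typical r between names was not computed, so r within the family cannot be called high or low. After each age's mean was taken off, miR-148a-3p was most like miR-196b-5p (r = 0.90), miR-542-3p (0.88) and miR-455-5p (0.88). miR-148b-3p was then most like miR-144-3p (r = 0.90), miR-9-3p (0.89) and miR-322-5p (0.89), and miR-152-3p most like miR-15b-3p (0.87), miR-126a-5p (0.85) and miR-186-5p (0.83). Within the family, on the same basis, r was 0.74 between miR-148a-3p and miR-152-3p, 0.68 between miR-148b-3p and miR-152-3p, and 0.53 between miR-148a-3p and miR-148b-3p. With the age difference left in, miR-148b-3p was most like miR-126a-5p (r = 0.93), miR-190a-5p (0.92) and miR-29c-3p (0.91), miR-148a-3p most like miR-141-3p (0.88), miR-26b-5p (0.87) and miR-142a-3p (0.85), and miR-152-3p most like miR-15b-3p (0.87), miR-301a-3p (0.83) and miR-186-5p (0.80).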

How the data were processed

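Per the labels' protocols, kidney RNA, small RNAs included, came from a NucleoSpin column and went into QIAseq miRNA libraries. The submitters' processing notes name FastQC, while aligner, build and use of molecular identifiers were not given in the sources available. The authors deposited 1 table in CPM, whose libraries each sum to 1000000; 100.0% of its values were whole multiples of 1 read within 0.001 of a read, which gave the reads per library. Intervals from reads cover counting error only. Libraries were grouped by their age label and numbered in the order of the series. Libraries of an age differed beyond sampling noise (chi-square of at least 50.9 per degree of freedom).

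Using R 4.3.3, limma 3.58.1 (trend) was fitted to log2(CPM + 1) of the 564 names that reached 1 CPM in 6 or more libraries, and to the log2 ratio of arms of hairpins with both arms at a mean of at least 20 CPM. A log2 change on this scale understates the change of low names. Single values were compared by exact permutation over 924 assignments. Both limma fits were run on simulated data with changes set in both directions. The age fit called 1.3% of unchanged names and 78.5% of those with a log2 change of 0.585. The arm fit called 0% and 81.8%. The lopsided changes of these libraries were not simulated, so these shares do not bear on the scaling. Every simulated name had the same spread beyond counting noise and varied independently of the others. The shares therefore may not hold for members that varied more, as miR-148a-3p did at day 8. Alternatives were edgeR 4.0.16, DESeq2 1.42.0 and limma-voom on the recovered reads, TMM factors, other pseudocounts, filters and arm minimums, and each library left out. Named are the 6 members, fixed lists, and the 3 names most like each 3p member. The members and lists were chosen with earlier results of these data known.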

Additional observations from a re-analysis of the deposited data

Results flagged for a closer look

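In all, 84 sets of 6 libraries were checked for a library far from the others, and 7 were flagged; chance flags about 1 in 20. miR-148a-3p stood apart in day 0 replicate 2, at 10216 CPM, the highest of its age. The ratio of miR-148a-3p to miR-148b-3p stood apart in day 8 replicate 2, where it was highest at 6.32, and in day 0 replicate 3, where it was lowest at 3.92. miR-185-5p was low in day 8 replicate 3, at 440.0 CPM, and in day 0 replicate 1, at 355 CPM. miR-204-5p was low in day 0 replicate 6, at 285 CPM. miR-451a was high in the same library, at 620 CPM.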

How the results depend on the processing

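No paired analysis was possible because the labels give the ages no shared replicate numbers. miR-148b-3p and miR-148a-5p kept their direction and their call under all 23 alternatives, and the arm results of miR-148b (calls) and miR-152 (no call) kept theirs wherever the hairpin was tested; at an arm minimum of 100 CPM no family hairpin was left. The results that moved did so mostly with the scaling; the cause was not tested. With edgeR TMM, edgeR RLE, edgeR upper quartile, DESeq2, limma-voom and limma with TMM factors, in this order, the log2 changes were 0.70, 0.74, 0.88, 0.74, 0.65 and 0.65 for miR-148a-3p (all past the threshold), 0.37, 0.41, 0.55, 0.41, 0.36 and 0.36 for miR-152-3p (reversed, all past), 0.36, 0.40, 0.54, 0.40, 0.35 and 0.35 for miR-148b-5p (reversed, all past), and 0.21, 0.24, 0.39, 0.24, 0.20 and 0.19 for miR-152-5p (reversed, past with upper quartile and DESeq2). The names called higher then numbered 173, 177, 213, 180, 174 and 171, against 93 per library total. Those called lower numbered 195, 188, 155, 189, 192 and 193 in the same order, against 272 per library total. All of the settings named in this order rescale the libraries. Per library total, edgeR gave 0.30 for miR-148a-3p, -0.024 for miR-152-3p, -0.032 for miR-148b-5p and -0.19 for miR-152-5p. None of these passed the threshold. The log2 ratio of the mean 3p totals was 0.18, and 0.57 with TMM factors, an alternative chosen after seeing the data. Leaving out 1 library gave log2 changes of 0.13 to 0.35 for miR-148a-3p, -0.067 to 0.035 for miR-152-3p (positive without day 8 replicate 3), -0.090 to 0.030 for miR-148b-5p (positive without day 8 replicate 3, without day 8 replicate 4 and without day 0 replicate 2) and -0.23 to -0.13 for miR-152-5p. It gave -0.27 to -0.082 for the ratio of miR-148a-3p to miR-148b-3p, 0.19 to 0.36 for that of miR-148a-3p to miR-152-3p, 0.40 to 0.46 for that of miR-148b-3p to miR-152-3p, 0.087 to 0.25 for the ratio of the mean 3p totals, and -1.50 to -1.27, -0.48 to -0.37 and -0.21 to -0.058 for the arm ratios of miR-148a, miR-148b and miR-152. Among the markers, miR-144-5p (-0.33 per library total) reversed to 0.065, 0.12, 0.25, 0.12, 0.070 and 0.056 in the same order, and miR-451a (-0.25) to 0.11 with upper quartile factors, 0.15 with limma-voom, 0.14 with TMM factors, none past the threshold; leaving out 1 library gave it -0.43 to 0.090, positive without day 0 replicate 6. The depth behind miR-148a-5p, 51 to 192 reads per library, limits how finely its share can be read in a single library.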
